A study of Mus musculus with 8 samples.

Results

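Endothelial genes were followed in bulk liver RNA of mice that carry a nonsense allele of Jag1. They are 36 genes of sinusoidal and other vascular endothelium, set against the 16593 genes named on the array. The list was fixed by gene symbol, and it was chosen with earlier results of these data known. Of the 36, 35 were named for at least 1 probe, with 47 probes in all, and Cldn5 was not analysed here. The heterozygous group was 4 male mice with the germline allele Jag1K295*/+, and they were set against 4 wild-type males. All 8 were 21 weeks old and of the strain C3HeB/FeJ, and whole-liver RNA was measured, with the allele in every cell type of the heterozygous mice. Each mouse gave 1 Illumina bead array, which reports a fluorescence intensity per probe. Titles of the heterozygous samples carry the word "hom", and the groups here follow the genotype label, which gives heterozygous. Each mouse has its own number, so replicates are separate animals.

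In people, loss of 1 copy of the gene causes Alagille syndrome, in which bile ducts are too few, and the comparison asks which liver transcripts differ between the genotypes. Sinusoidal endothelial cells line the liver's capillaries as a fenestrated layer without a typical basement membrane, and they clear macromolecules from blood through scavenger and Fc receptors. They also send signals to hepatocytes, among them Wnt ligands around the central vein and BMP ligands that control iron uptake. Jag1 is a ligand of the Notch receptors, which in blood vessels act through the DNA-binding protein RBPJ and take part in arterial fate and in sprouting. In bulk RNA, fewer cells of a type and less RNA per cell cannot be told apart.

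To show what the Notch effector could read near these genes, the 250 bases before the annotated start of each gene were searched on both strands for TGGGAA, the core word of RBPJ. RefSeq windows on GRCm38.p6 were found for 20 of the 36 genes, 25 windows in all. The word stood in 5 of 25 windows, against 7094 of all 32851 windows of that length (21.6%), and these 5 belonged to Egfl7, Ehd3, Kdr, Tie1 and Tinagl1. A word for ETS factors, which are widely used in endothelial genes, was searched in the same way: CAGGAA stood in 12 of 25 windows (48.0%), against 25.7% of all windows. The 2 words share their last 4 letters but cannot match at the same GGAA. A match describes the letters and is neither a bound site nor a cause. The windows of both receptor genes that hold TGGGAA and of Ehd3, which holds it on both strands, are shown 5′ to 3′ on the gene's strand, with the word (TTCCCA on the opposite strand) in capitals. Kdr lies on the minus strand at chr5:75978456-75978705, Tie1 on the minus strand at chr4:118489850-118490099 and Ehd3 on the plus strand at chr17:73804591-73804840. The word starts 128 bases before the start of Kdr, 16 before that of Tie1, and 158 and 137 before that of Ehd3.
Kdr: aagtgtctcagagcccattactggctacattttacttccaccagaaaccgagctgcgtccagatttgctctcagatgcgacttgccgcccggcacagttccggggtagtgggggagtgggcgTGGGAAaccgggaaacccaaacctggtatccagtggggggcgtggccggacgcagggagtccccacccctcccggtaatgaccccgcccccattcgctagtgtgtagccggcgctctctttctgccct
Tie1: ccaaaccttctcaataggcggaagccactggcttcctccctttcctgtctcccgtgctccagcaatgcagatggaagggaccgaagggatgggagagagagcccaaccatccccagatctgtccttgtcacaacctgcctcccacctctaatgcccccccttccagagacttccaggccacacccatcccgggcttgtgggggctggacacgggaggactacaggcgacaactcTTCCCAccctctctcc
Ehd3: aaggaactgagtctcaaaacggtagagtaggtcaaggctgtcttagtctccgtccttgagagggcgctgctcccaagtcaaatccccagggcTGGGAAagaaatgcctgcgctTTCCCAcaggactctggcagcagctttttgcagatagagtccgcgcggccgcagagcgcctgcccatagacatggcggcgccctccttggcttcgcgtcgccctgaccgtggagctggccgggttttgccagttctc

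Over the arrays, mean signals ranged from 422 to 488, and 11022 to 11873 of 25697 probes had a detection p-value under 0.05. On the first principal component (30.3% of the variance) heterozygous replicates 1 to 4 scored -0.42, 6.90, 2.65 and 24.3. The wild-type arrays scored -12.3 to -4.12. All heterozygous arrays thus lay above all wild-type arrays, and heterozygous replicate 4 stood furthest out. The Jag1 probe was detected on 0 of 8 arrays, so the mutated gene does not check the labels. The hepatocyte markers Ttr, Apoa1, Apoc3, Serpina1c, Hnf4a, Cps1 and Cyp2e1 were detected on all 8 arrays, while the probes of Alb and Fgb were detected on 2 and 0 arrays. Probes detected in this sense on 4 or more of the 8 arrays were tested, 11412 in all.

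No endothelial gene passed the test between heterozygous and wild-type liver. Of the 35 genes, 33 were tested with limma, and 0 were higher and 0 lower at an adjusted p under 0.05, where 0.00876% of all tested probes were called (1 probe, of the keratin gene Krt23, a call lost when the replicate number was a block, when background was not corrected and when all probes were tested). Also at an unadjusted p under 0.05 there were 0 of 33, against 11.2% of all tested probes, and the groups did not overlap for 0 of 33, against 6.25% of all tested probes. Log2 fold changes ran from -0.26 for Plvap to 0.36 for Vwf, with 16 genes above 0 and 17 below it, and a median of -0.03 against 0.01 over the 7960 genes tested. With median scaling of the arrays in place of quantile normalization, 11 lay above 0 and 22 below, and the median over all tested probes moved to -0.04, against 0.01 after quantile normalization. Without heterozygous replicate 4, the array that stood apart, 12 lay above 0 and 21 below, with a median of -0.05; 0 were called, and Pecam1, Cdh5 and Plvap were below 0 at an unadjusted p under 0.05. The count over all probes was 0 without heterozygous replicate 3 or wild-type replicate 4, 2 without heterozygous replicate 2 and 7 without heterozygous replicate 1, while the count of endothelial genes was 0 each time. Adjusted p-values of the 33 genes lay between 0.472 and 0.997.

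The intervals show which changes these 8 arrays could still hold. The 95% interval of the log2 fold change lay within ±0.5, a 1.41-fold change in either direction, for 28 of 33 genes, against 85.01% of all genes tested. It lay within ±1 for 33 of 33. The 28 include the dim genes Cd34, Kdr and Lyve1, detected on 4, 4 and 5 of the 8 arrays. The offset added to the signals shrinks the fold change of such probes, so their intervals do not bound a change in transcript level. Cdh5, Flt4, Nrp1, Vwf and Plvap reached past ±0.5, and the widest interval was that of Vwf, a dim gene, at -0.02 to 0.75. The narrowest was that of Fcgrt, at -0.25 to 0.09.

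**Figure D1:**
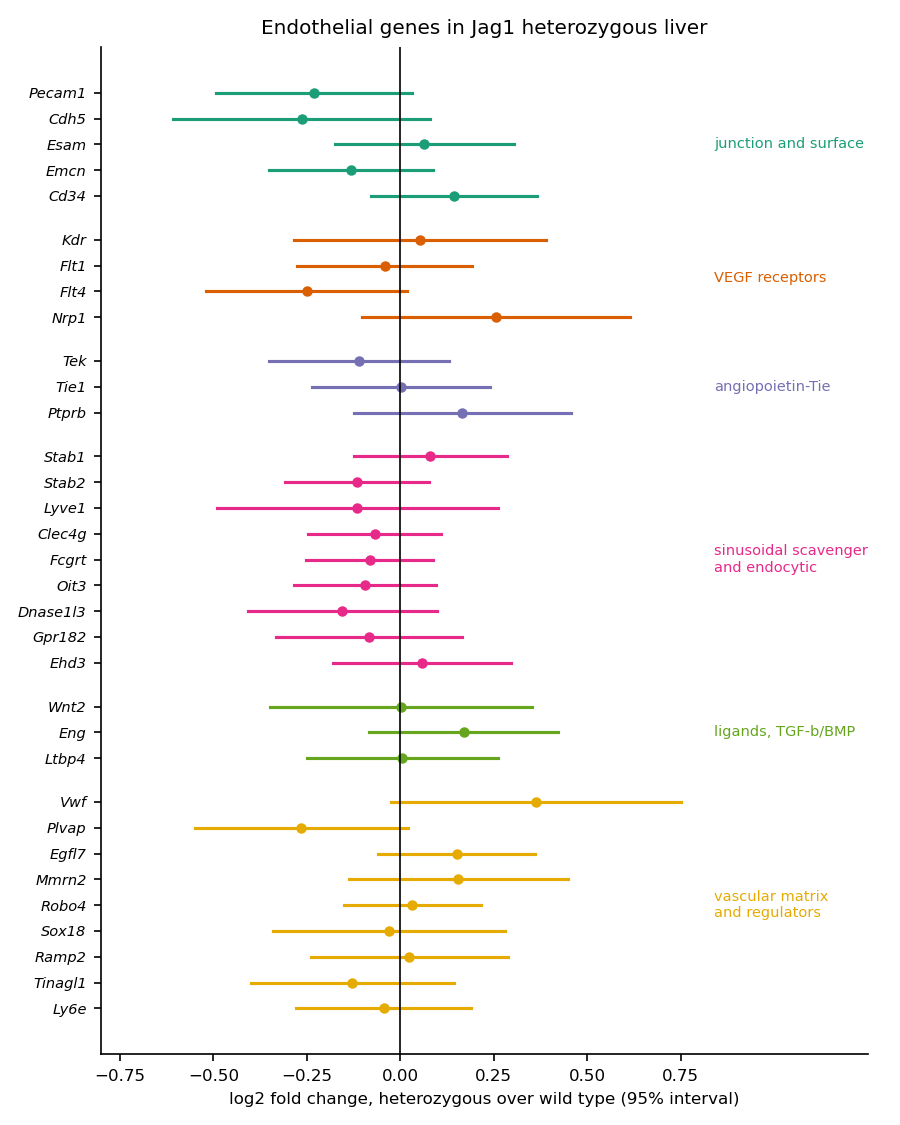
Log2 fold change, heterozygous over wild type, of the 33 tested endothelial genes (points) with 95% intervals of the limma fit (bars), grouped by role; n = 4 mice per group. Every interval spans 0, and the points lie between -0.26 (Plvap) and 0.36 (Vwf).

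Genes of endothelial junctions and the cell surface had a median log2 fold change of -0.13 over 5 tested genes, 2 above 0 and 3 below. Pecam1 encodes an adhesion molecule between endothelial cells. Its log2 signal was 6.53, 6.65, 6.64 and 6.89 in heterozygous liver and 7.16, 6.86, 6.95 and 6.66 in wild-type liver. Heterozygous replicate 4 lay above wild-type replicates 2 and 4, and the remaining heterozygous arrays lay below all wild-type arrays. The log2 fold change was -0.23 ± 0.12 (SE, limma adjusted p = 0.491). With an array left out it ranged from -0.31 to -0.15, the latter without wild-type replicate 1. Esam, encoding an adhesion molecule of tight junctions, had 8.52, 8.64, 8.39 and 8.84 in heterozygous liver and 8.71, 8.46, 8.44 and 8.53 in wild-type liver. The wild-type values of Esam lay inside the heterozygous range (log2 fold change 0.06 ± 0.11, SE). Emcn, encoding the sialomucin endomucin, had 7.13, 6.996, 6.89 and 7.04 in heterozygous liver and 7.29, 7.002, 7.29 and 7.001 in wild-type liver. Wild-type replicates 1 and 3 lay above all 4 heterozygous arrays, and the other 2 lay among them (-0.13 ± 0.10, SE). Cdh5, encoding VE-cadherin, had a log2 fold change of -0.26 ± 0.16 (SE). With an array left out it ranged from -0.39 to -0.15, the latter without wild-type replicate 1. Cd34, a sialomucin that is sparse on healthy sinusoidal endothelium, had 0.14 ± 0.10 (SE) and was detected on 3 heterozygous arrays and 1 wild-type array.

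The VEGF receptors take up the growth factors that keep the endothelium alive and permeable, and their 4 genes had a median log2 fold change of 0.0057. Flt4 encodes VEGF receptor 3, found on sinusoidal and lymphatic endothelium. Its log2 signal was 6.09, 6.02, 5.96 and 5.61 in heterozygous liver and 6.31, 6.16, 5.94 and 6.27 in wild-type liver. Wild-type replicates 1, 2 and 4 lay above all heterozygous arrays, and wild-type replicate 3 lay below 3 of them. The log2 fold change was -0.25 ± 0.12 (SE, limma adjusted p = 0.476). With an array left out it ranged from -0.32 to -0.15, the latter without heterozygous replicate 4. Nrp1, encoding the co-receptor neuropilin 1, had 9.97, 10.54, 10.24 and 10.48 in heterozygous liver and 9.84, 9.97, 9.92 and 10.48 in wild-type liver. Wild-type replicate 4 lay among the high heterozygous arrays, and the other 3 wild-type arrays lay near or below the lowest. The log2 fold change was 0.26 ± 0.16 (SE). With an array left out it ranged from 0.18 to 0.40, the latter without wild-type replicate 4. Flt1, encoding VEGF receptor 1, had 7.56, 7.75, 7.63 and 7.70 in heterozygous liver and 7.93, 7.77, 7.45 and 7.66 in wild-type liver. The heterozygous values of Flt1 all lay inside the wild-type range (-0.04 ± 0.11, SE). Kdr, encoding VEGF receptor 2, was detected on 2 heterozygous and 2 wild-type arrays, and its log2 fold change was 0.05 ± 0.15 (SE).

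The angiopoietin receptors stabilise vessels, and the phosphatase encoded by Ptprb switches the receptor encoded by Tek off. Ptprb had log2 signals of 7.71, 8.10, 7.74 and 7.98 in heterozygous liver and 7.86, 7.94, 7.44 and 7.62 in wild-type liver. The ranges of Ptprb overlapped (log2 fold change 0.17 ± 0.13, SE; limma adjusted p = 0.663). Tek had 7.75, 7.29, 7.62 and 7.74 in heterozygous liver and 7.70, 7.80, 7.66 and 7.66 in wild-type liver. Heterozygous replicate 2 was the lowest array for Tek and the other 3 lay among or just below the wild-type values (-0.11 ± 0.11, SE). Tie1, the related orphan receptor, had a log2 fold change of 0.0028 ± 0.11 (SE).

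Of the 9 genes listed for scavenging and endocytosis by sinusoidal cells, 2 lay above 0 and 7 below, where 45.6% of all genes tested lay below. Their median log2 fold change was -0.08, with a range from -0.15 to 0.08. Clec4g encodes the sinusoidal lectin LSECtin. Its log2 signal was 11.46, 11.55, 11.43 and 11.62 in heterozygous liver and 11.65, 11.65, 11.50 and 11.53 in wild-type liver. The groups overlapped, and the log2 fold change was -0.07 ± 0.08 (SE). Fcgrt encodes the heavy chain of the neonatal Fc receptor, which recycles IgG and albumin and is also made by hepatocytes and macrophages. It had 11.67, 11.91, 11.75 and 11.79 in heterozygous liver and 11.88, 11.88, 11.82 and 11.87 in wild-type liver. After quantile normalization, heterozygous replicate 2 was the highest of the 8 arrays for Fcgrt and replicate 1 the lowest (-0.08 ± 0.08, SE). Before it, Fcgrt signals were 3089 to 3584 in heterozygous and 3778 to 4119 in wild-type liver. Those of Clec4g were 2695 to 3200 and 3233 to 3494. Mean array signals were 422 to 453 and 438 to 488. With median scaling, the log2 fold changes of Fcgrt and Clec4g were -0.16 and -0.14 (limma adjusted p = 0.651 and 0.705). Dnase1l3, encoding a secreted DNase that degrades circulating chromatin, had 8.99, 9.08, 8.85 and 9.23 in heterozygous liver and 9.41, 9.28, 9.05 and 9.03 in wild-type liver. Wild-type replicates 1 and 2 were above all heterozygous arrays and the other 2 were not (-0.15 ± 0.11, SE; limma adjusted p = 0.634). The hyaluronan scavenger receptors Stab2 and Stab1 had log2 fold changes of -0.12 ± 0.09 and 0.08 ± 0.09 (SE), and Stab1 is also made by macrophages. Gpr182, a chemokine-scavenging receptor, had -0.08, Oit3 -0.09 and Ehd3, encoding an endocytic ATPase, 0.06. Lyve1, a hyaluronan receptor, had -0.12 ± 0.17 (SE) and was detected on 2 heterozygous and 3 wild-type arrays.

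Of the ligands and the TGF-β and BMP genes, 3 were tested and lay above 0 after quantile normalization, while with median scaling 1 lay above 0 and 2 below. Eng encodes endoglin, a co-receptor for BMP and TGF-β ligands. Its log2 signal was 8.49, 8.54, 8.38 and 8.86 in heterozygous liver and 8.56, 8.44, 8.26 and 8.33 in wild-type liver. Heterozygous replicate 4 was above all other arrays and the rest overlapped (log2 fold change 0.17 ± 0.11, SE, limma adjusted p = 0.609). With an array left out, the log2 fold change ranged from 0.07, without heterozygous replicate 4, to 0.23. Ltbp4, encoding a protein that holds latent TGF-β in the matrix, had 7.69, 8.17, 7.73 and 7.89 in heterozygous liver and 7.96, 7.94, 7.70 and 7.86 in wild-type liver. The wild-type values of Ltbp4 lay inside the heterozygous range (0.0055 ± 0.12, SE). Wnt2, a pericentral Wnt ligand, had 0.0022 ± 0.16 (SE). Bmp2, a BMP ligand that induces hepcidin, was not well above background: its signal was 116 to 122 in heterozygous liver, with 0 arrays detected, and reached 144 on wild-type replicate 3, the 1 array that detected it.

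Of the vascular matrix proteins and regulators, 5 lay above 0 and 4 below, or 3 above and 6 below with median scaling. Vwf encodes von Willebrand factor, which larger vessels store for haemostasis. Its log2 signal was 5.32, 5.72, 5.70 and 5.55 in heterozygous liver and 5.34, 5.65, 5.12 and 4.74 in wild-type liver. The lowest 2 arrays were wild type, while wild-type replicate 2 lay above 2 of the heterozygous arrays. The log2 fold change was 0.36 ± 0.18 (SE; limma adjusted p = 0.472), and wild-type replicate 4, the lowest array, did not detect the probe. With an array left out, the log2 fold change ranged from 0.21, without wild-type replicate 4, to 0.51. It was 0.19 with an offset of 50 and 0.11 with no background correction. Plvap, which forms the diaphragms of fenestrae and caveolae, is given array by array because of its size, seen after the values were known. It had 8.20, 8.01, 7.80 and 8.37 in heterozygous liver and 8.48, 8.44, 8.14 and 8.37 in wild-type liver. Wild-type replicates 1 and 2 lay above all heterozygous arrays, and the log2 fold change was -0.26 ± 0.13 (SE, limma adjusted p = 0.476). With an array left out it ranged from -0.36 to -0.17, the latter without heterozygous replicate 3. Egfl7, encoding a secreted endothelial factor, had 9.87, 9.98, 9.81 and 10.13 in heterozygous liver and 9.90, 9.82, 9.64 and 9.83 in wild-type liver. The lowest array for Egfl7 was wild-type replicate 3, and the remaining values overlapped (0.15 ± 0.10, SE). Ly6e, encoding a membrane-anchored protein made by many cell types, had 10.35, 10.05, 10.15 and 10.15 in heterozygous liver and 10.06, 10.47, 10.17 and 10.18 in wild-type liver. Each group held 1 high array for Ly6e and the ranges overlapped (-0.04 ± 0.11, SE). The log2 fold changes of Mmrn2 (a matrix glycoprotein), Robo4 (an endothelial guidance receptor), Ramp2 (a subunit of the adrenomedullin receptor), Sox18 (a transcription factor) and Tinagl1 (a matrix protein) were 0.16, 0.03, 0.02, -0.03 and -0.13. Sparcl1, encoding a matricellular protein, was detected on 0 of 8 arrays, with signals of 109 to 123 in heterozygous liver and 116 to 128 in wild-type liver.

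**Figure D2:**
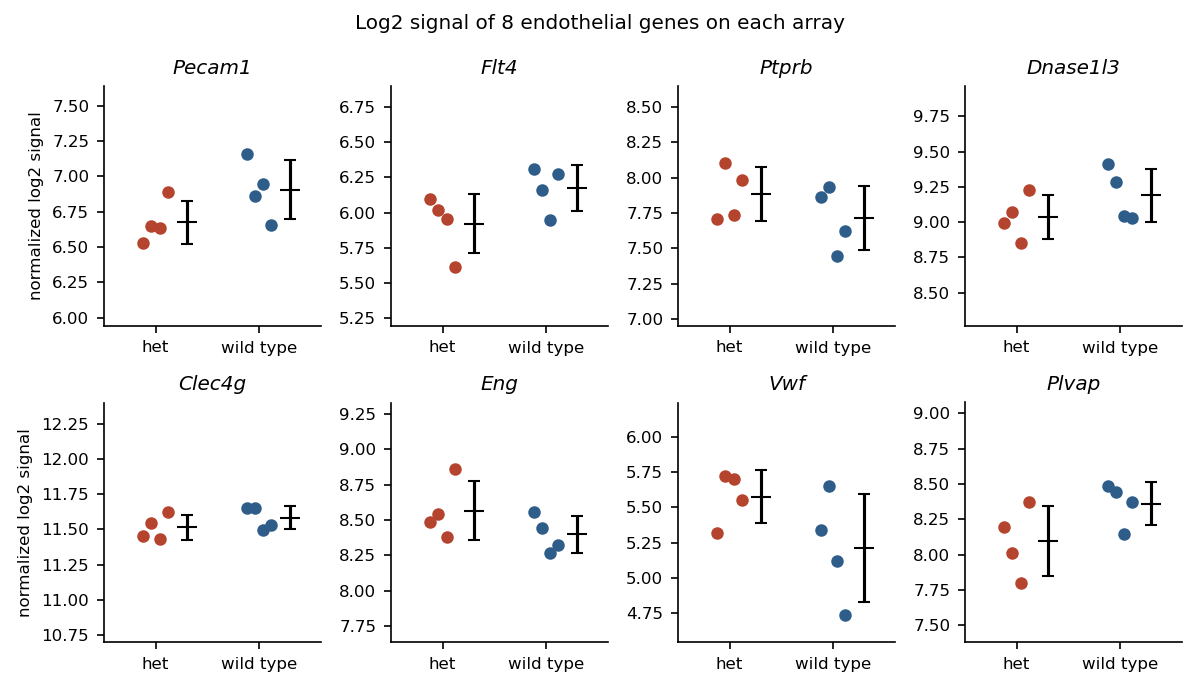
Normalized log2 signal of 8 endothelial genes on each array (points; heterozygous left, wild type right), with the mean ± SD of the 4 arrays as a bar beside them; the panels span the same number of log2 units. The groups overlap in all 8 panels.

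Several probes read the same gene in 9 of the 35 genes, and for 5 genes more than 1 of them was tested. The probes of Nrp1, Gpr182, Ltbp4 and Egfl7 lay on the same side of 0 within each gene: 0.26 and 0.16 for Nrp1, -0.08 and -0.16 for Gpr182, 0.0055 and 0.05 for Ltbp4, and 0.15, 0.09 and 0.23 for Egfl7. Those of Pecam1 did not, with -0.23 for the brighter probe and 0.16 for the other. The difference between the log2 signals of the brighter and the other Pecam1 probe was 0.46 to 0.71 in heterozygous liver and 0.75 to 1.15 in wild-type liver, so these ranges did not overlap. An exact two-sided permutation test of that difference gave p = 0.0286, the smallest that 70 assignments allow, and p = 0.200 after adjustment over the 7 probe pairs of the 5 genes. The adjusted p of the other 6 pairs was 0.720 or higher. Both limma intervals spanned 0, at -0.49 to 0.03 for the brighter probe and -0.11 to 0.43 for the other, and the parts of the transcript that they read were not analysed here. Probes of Flt1, Flt4, Oit3, Ltbp4 and Robo4 beside the tested ones were detected on 0 arrays, except 1 of Robo4 that was detected on 2.

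**Figure D3:**
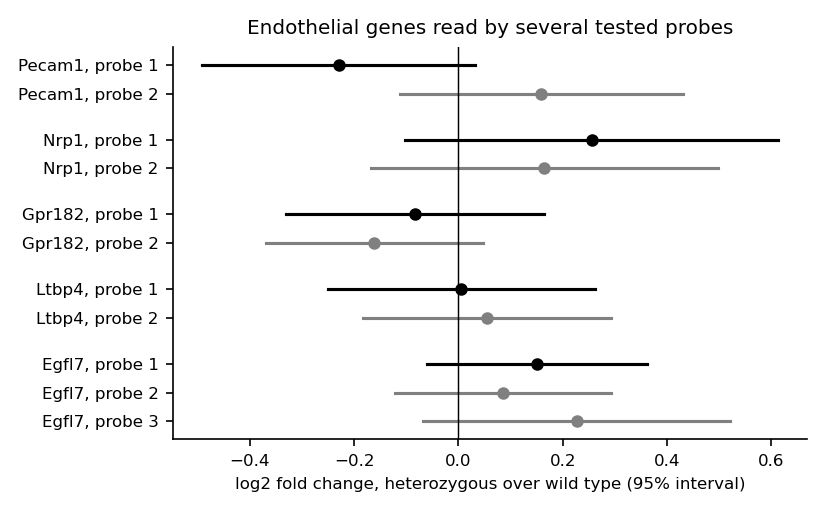
Log2 fold change, heterozygous over wild type, with the 95% limma interval, of each tested probe of the 5 endothelial genes read by more than 1; the brightest probe of a gene is black and listed first. Pecam1 is the gene whose probes lie on opposite sides of 0, at -0.23 and 0.16.

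The endothelial genes had high and low arrays in both genotypes. For each array, the log2 signal of each gene was taken relative to its mean over the 8 arrays, and these deviations were averaged over the 33 genes. The average was -0.05, 0.03, -0.11 and 0.11 in heterozygous replicates 1 to 4 and 0.12, 0.03, -0.09 and -0.03 in wild-type replicates 1 to 4. Each group thus held a high and a low mouse, and the group averages differed by -0.015. In heterozygous replicate 4, 29 of 33 genes lay above the mean of the other 3 heterozygous arrays, against 55.5% of all 7960 genes tested. In wild-type replicate 1, 28 of 33 lay above the mean of the other 3 wild-type arrays, against 52.2% of all genes. In heterozygous replicate 3 only 5 of 33 did, against 47.0%, and in wild-type replicate 3 only 4 of 33, against 48.4%. Wild-type replicate 1 was the highest array for 12 of 33 genes (12.2% of all genes) and heterozygous replicate 3 the lowest for 12 of 33 (15.5% of all genes). The median SD was 0.17 in heterozygous and 0.16 in wild-type liver over the endothelial genes, against 0.14 and 0.13 over all genes.

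**Figure D4:**
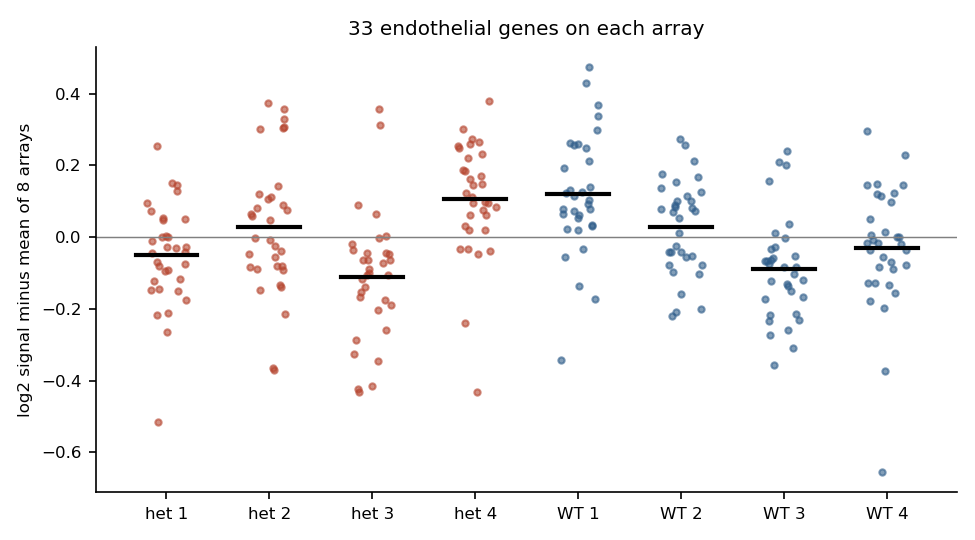
Log2 signal of each of the 33 tested endothelial genes minus its mean over the 8 arrays (points), by array, with the average over genes as a line; heterozygous left, wild type right. The lines run from -0.11 (heterozygous replicate 3) to 0.11 (replicate 4) and from -0.09 (wild-type replicate 3) to 0.12 (replicate 1).

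By role, the junction and surface genes varied most in wild-type replicate 1, at 0.26, with the other wild-type arrays between -0.05 and -0.01. The scavenger and endocytic genes ran from -0.12 to 0.09 in heterozygous and from -0.04 to 0.14 in wild-type liver, and the vascular matrix genes from -0.10 to 0.14 and from -0.14 to 0.10. The VEGF receptor genes went differently: heterozygous replicate 2 (0.19) and wild-type replicate 4 (0.16) were their high arrays. Further endothelial surface genes, none of them among the 36, averaged 0.16 in heterozygous replicate 4 and 0.08 in wild-type replicate 1, with the other arrays between -0.05 and -0.02.

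Markers of other cell types moved with some of these mice. The Kupffer cell and macrophage genes (12 of 16 tested, Cd5l and Fcer1g not detected, Cd68 and Csf1r not analysed here) averaged -0.06, -0.16, -0.30 and 0.17 in heterozygous replicates 1 to 4 and 0.20, 0.18, -0.04 and 0.02 in wild-type replicates 1 to 4. They were thus lowest in heterozygous replicate 3 and highest in wild-type replicate 1, as the endothelial genes were. Their median log2 fold change was -0.21, with 11 of 12 below 0, against 45.6% of all genes tested, and 0 past the threshold. The genes of a list were read in the same 8 mice, so such counts are not independent. Fcna, Vsig4 and Clec4f, with the lowest p of the list, were at -0.45, -0.30 and -0.23. Of the stellate and smooth muscle genes 8 of 15 were tested (Lrat, Col1a2, Col3a1, Tagln, Myh11 and Hand2 not detected). Their averages ranged from -0.13 to -0.03 in heterozygous and from -0.13 to 0.21 in wild-type liver. The median log2 fold change was -0.13, with 7 of 8 below 0, against 45.6% of all genes tested. Ngfr was at -0.38, Rgs5 at -0.28 and Acta2 at -0.14. The hepatocyte genes (7 of 10 tested) ranged from -0.02 to 0.06 and from -0.04 to 0.02, with a median of 0.0051. Hnf4a was at 0.19, Ttr at -0.10 and Serpina1c at -0.09. The groups did not overlap for 2 of these 7, Ttr and Serpina1c (limma adjusted p = 0.625 and 0.642), against 6.25% of all tested probes. Both are bright, and quantile normalization gives arrays the same value at the same rank. Serpina1c was tied at 14.483 in wild-type replicates 1 and 2 and at 14.472 in replicates 3 and 4. Ttr was tied at 14.223 in heterozygous replicates 1 and 3. Of the lymphocyte genes 2 of 12 were tested (Prf1 0.21, Coro1a -0.21), and of the erythroid genes 3 of 7 (Hba-a1 -0.45, Hbb-b2 -0.43, Alas2 -0.03). Hba-a1 and Hbb-b2 were highest in wild-type replicate 3, at 13.17 and 7.83, against 12.24 to 12.86 and 7.05 to 7.19 on the other wild-type arrays. Of the bile duct genes 4 of 10 were tested (Krt19, Sox9, Cftr and Tspan8 not detected, Epcam and Spp1 not analysed here). Of these lists only the bile duct one held a called gene, Krt23, which fell by 1.36 on the log2 scale (limma adjusted p = 0.0104; this call was lost in the alternatives named above), beside Cldn7 (0.12) and Anxa4 (-0.02). The part of other cell types in the endothelial values was not tested.

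**Figure D5:**
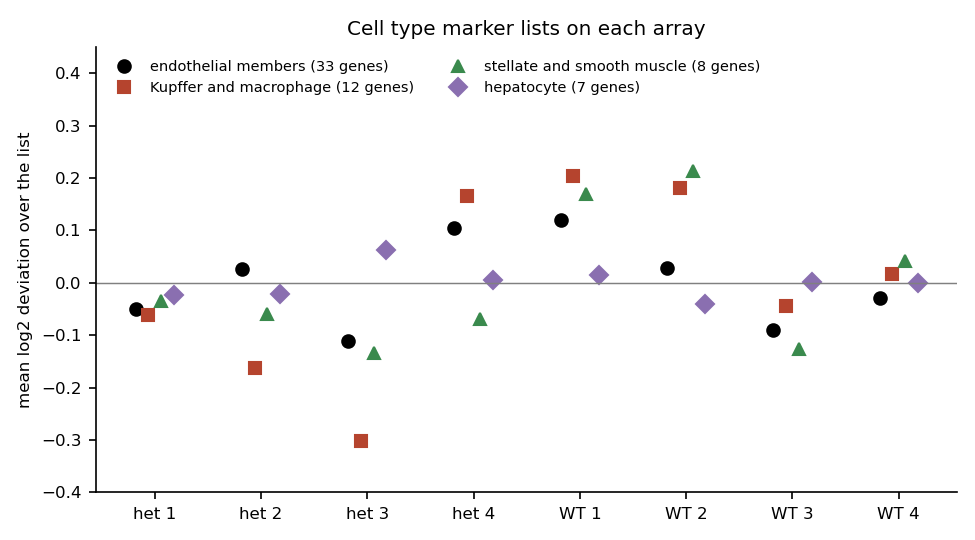
Average over each marker list of the log2 signal minus its mean over the 8 arrays, by array (heterozygous left, wild type right), for endothelial, Kupffer and macrophage, stellate and smooth muscle, and hepatocyte genes. Endothelial and macrophage averages are both lowest in heterozygous replicate 3 (-0.11 and -0.30) and highest in wild-type replicate 1 (0.12 and 0.20), while hepatocyte genes stay between -0.04 and 0.06.

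Other genes of the vascular pathways likewise gave 0 calls over all probes in 5 further lists. Of 19 tested surface genes, 12 lay above 0 and 7 below, with a median log2 fold change of 0.06. Icam1, encoding a leukocyte adhesion molecule that endothelium and other cells carry, had 7.45, 7.76, 7.44 and 7.65 in heterozygous liver and 7.37, 7.08, 7.40 and 7.29 in wild-type liver. All heterozygous arrays were above all wild-type arrays, by a narrow margin (0.29 ± 0.10, SE; limma adjusted p = 0.378). Mcam, an adhesion molecule of endothelium and pericytes, was apart too (0.28 ± 0.11, SE; limma adjusted p = 0.415), and the mannose receptor gene Mrc1 was at -0.23. Of 9 vascular ligands, 5 lay above and 4 below 0 (median 0.05; Cxcl12 0.16, Rspo3 -0.20, Vegfc -0.13). Of 11 endothelial transcription factors, 6 lay above and 5 below (median 0.02; Gata6 -0.19, Epas1 -0.41, Gata4 0.28). The value of Epas1 rested on heterozygous replicate 4, which had 6.01 beside 7.01, 7.14 and 7.24 on the other heterozygous arrays, with 6.98 to 7.42 in wild-type liver. Of 11 BMP and TGF-β receptors and targets, 6 lay above and 5 below (median 0.03), with a range from -0.58 to 0.26. The 3 with the smallest p were the receptor genes Bmpr1a (0.26) and Tgfbr1 (0.16) and Smad1, a BMP signal carrier (0.21). The gene at -0.58 was not among these 3. For Gata6 and Smad1 the groups did not overlap, with limma adjusted p of 0.402 and 0.443. Such genes were 2 of the 19 surface genes, 0 of the 9 ligands, 1 of the 11 transcription factors and 1 of these 11. Over all genes tested they were 461 of 7960. The named genes were picked for the smallest p of their list.

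Of 14 Notch genes active in vessels, 7 were tested, 5 above and 2 below 0, with a median of 0.06, while the ligand genes Dll4, Jag1 and Jag2, the targets Hey2, Heyl and Efnb2, and Rbpj were not detected on enough arrays. Hes1, a Notch-induced repressor made in many liver cells, had a log2 signal of 6.69 to 7.65 in heterozygous liver and 7.78 to 8.57 in wild-type liver. The groups were apart, as for 1 of the 7 tested genes of this list (Hes1 itself) and 461 of all 7960 genes tested. Its log2 fold change of -0.84 ± 0.22 (SE) did not pass over all probes (limma adjusted p = 0.256). The endothelial Notch target Nrarp and the venous receptor gene Ephb4 were at 0.22 and 0.21.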

How the data were processed

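Liver RNA of 4 heterozygous and 4 wild-type mice was read on 1 array each. The authors deposited non-normalized signal intensity for 25697 probes and, beside it, a detection p-value per probe and array, per the file headers; GenomeStudio 2011.1 made them, per the submitters' processing notes. A further deposited table holds processed intensity on a linear scale, with values below 0; its medians were 8.97, 8.96, 8.97 and 8.97 on the heterozygous and 8.98, 8.96, 8.97 and 8.99 on the wild-type arrays, and its ranks followed the signals of the same array. How its background was subtracted and the arrays centred and normalized is unknown.

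Background was corrected with nec of limma 3.58.1 in R 4.3.3 (offset 16), arrays were quantile normalized, and values are log2; the added offset shrinks the fold change of dim probes. GEO's platform annotation named 23978 probes; an update through Entrez identifiers changed 0 symbols. The probe with the highest mean log2 signal among those tested stood for a gene. The lmFit and eBayes steps of limma compared the genotypes; p-values are two-sided, adjusted by Benjamini-Hochberg over 11412 probes and called under 0.05. Errors are standard errors of that fit or SDs over 4 arrays. The fit was also run on simulated arrays with independent noise per probe. These lack shifts shared by many genes of an array, so that run does not test the fit on data with such shifts. Labels name no chip or batch, so a BeadChip block was not run.

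The genes, lists and roles were chosen with earlier results of these data known. Values by array are given for members with an unadjusted p under 0.05 or groups apart, and, per role, for the 2 with the highest mean signal and the 1 with the smallest p. Of the other lists the up to 3 genes with the smallest p are named. Alternatives were no background correction, offset 50, median scaling, no filter or a filter of detection p under 0.01 on all 8 arrays, the processed table (values under 1 set to 1, plus 16, log2), a replicate block, array weights, a trended robust prior, a threshold of 0.10, the mean of a gene's probes, and leaving out each array.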

Additional observations from a re-analysis of the deposited data

Results flagged for a closer look

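Of 166 sets of 4 arrays, each the values of 1 gene or list average in 1 group, 11 had 1 array far off the rest; chance gives about 1 in 20, or 8.3. Of these, 5 concerned endothelial genes and their junction list, all in wild-type liver. Wild-type replicate 1 had 9.06 for Ehd3, against 8.65 to 8.71 on the other 3 arrays, 7.16 for Tinagl1, against 6.64 to 6.70, and an average deviation of 0.26 over the junction and surface genes, against -0.05 to -0.01. Wild-type replicate 3 had 11.8 for Fcgrt, with the others at 11.9, and 7.71 for Gpr182, against 7.91 to 7.94. For the further endothelial surface genes, heterozygous replicate 4 averaged 0.16, against -0.05 to -0.02, and wild-type replicate 1 averaged 0.077, against -0.05 to -0.03.

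The other 4 were Smad1 in heterozygous replicate 3 (8.72, against 8.36 to 8.39), Tgfbr1 in heterozygous replicate 2 (9.17, against 9.25 to 9.26), the transthyretin gene Ttr in heterozygous replicate 4 (14.1, with the others at 14.2) and Rspo3 in wild-type replicate 4 (6.43, against 6.75 to 6.81).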

How the results depend on the processing

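The count of 0 endothelial genes called held under all 19 alternatives, and their adjusted p never went below 0.337 in any of them. At an unadjusted p under 0.05 the count reached 3 without heterozygous replicate 4 (Pecam1, Cdh5 and Plvap, lower), 3 without heterozygous replicate 1 (Nrp1 and Vwf higher, Flt4 lower) and 3 with the replicate block (Nrp1 and Vwf higher, Plvap lower). It was 2 with median scaling, with array weights, and without wild-type replicate 3 or 4, and 1 or 0 otherwise. The replicate numbers mark no shared litter or day in the labels: same-numbered arrays deviated together with correlations of -0.07, 0.13, 0.10 and 0.08, and 2 of 4 heterozygous arrays correlated best with their own number. The count over all probes, 1 as reported, was 0 with no background correction, 0 with no filter and 0 with the replicate block. With an array left out it ranged from 0 (without heterozygous replicate 3 or wild-type replicate 4) to 7 (without heterozygous replicate 1), and it was 2 without heterozygous replicate 2. Of 623 values of single endothelial genes, 596 kept their direction and 27, of 12 genes, changed it. The direction could not change under the threshold of 0.10, no filter, the stricter filter, the trended prior or the replicate block. These reuse the same normalized values, so the 596 include values fixed in advance. Of the 27 changes, 22 came with an array left out and 5 with median scaling. With median scaling these were Tie1 (-0.042), Wnt2 (-0.035), Ltbp4 (-0.040), Robo4 (-0.016) and Ramp2 (-0.020). With an array left out, the log2 fold change ranged from -0.050 to 0.083 for Tie1, -0.085 to 0.14 for Wnt2, -0.096 to 0.065 for Ltbp4, -0.025 to 0.061 for Robo4, -0.045 to 0.12 for Ramp2, -0.25 to 0.038 for Lyve1, -0.064 to 0.20 for Kdr, -0.15 to 0.011 for Gpr182, -0.016 to 0.13 for Esam, -0.13 to 0.034 for Flt1, -0.16 to 0.075 for Sox18 and -0.10 to 0.039 for Ly6e. Of the genes that kept their direction, it ranged from -0.16 to -0.0076 for Tek, 0.075 to 0.24 for Ptprb, -0.22 to -0.080 for Dnase1l3, -0.18 to -0.084 for Emcn and 0.090 to 0.20 for Egfl7. With no background correction Pecam1 was at -0.12, Cdh5 at -0.093, Flt4 at -0.096 and Vwf at 0.11. The cause was not tested. Dim probes (Cd34, Kdr, Lyve1, Vwf) were left out by the stricter filter, which kept 29 of the 33 genes.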
